A study of Arabidopsis thaliana with 3 samples.

Results

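Loss of the peptide receptor CEPR1 was examined in the vascular tissue of Arabidopsis thaliana cotyledons by setting the array of the mutant cepr1-1 against the array of untreated wild type. Of the 3 arrays in the study these 2 were compared, and 8643 of 16505 measured genes entered the comparison because the brighter of their 2 values lay at or above the median of its array, a limit called the floor below. The cepr1-1 array held vascular strands of mutant seedlings grown for 8 days on plain medium, and the control array those of wild-type seedlings grown in the same way. The remaining array, of wild type grown with 1 uM of the peptide CEP1 throughout, is quoted as a value beside the other 2. The cotyledons were loosened with cell wall enzymes and sonication, and the strands were picked by hand. Each array held the RNA of 200 pooled cotyledons and there was 1 array per group, so no difference below has a replicate check or a p-value. The mutant is represented by 1 allele, and the labels do not give the ecotype of either genotype. Ecotype, mutation and any difference in growth, dissection or array handling cannot be told apart.

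CEP peptides are made by roots that lack nitrogen and travel in the xylem to the shoot, where CEPR1, a leucine-rich repeat receptor kinase, perceives them in the leaf vasculature. The response known from this pathway is the production of the small glutaredoxins CEPD1 and CEPD2 in leaf veins, which move through the phloem to the root and raise nitrate uptake there. The comparison asks which vascular genes depend on the receptor in seedlings that received no added peptide.

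Values are log2 probe set values as deposited, a difference is the cepr1-1 value minus the control value, and folds are on the linear scale. CEPR1 itself was not analysed here, so the genotype was not checked on the arrays. As background for every count below, 49 genes above the floor (0.567%) lay 2-fold or more under the control in cepr1-1 and 30 (0.347%) lay as far over it, and at 1.5-fold or more the shares were 2.14% lower (185 genes) and 1.28% higher (111 genes). The medians over measured genes were 3.11 for cepr1-1, 3.07 for the control and 3.07 for the CEP1 array. Between cepr1-1 and control, 56.5% of the genes above the floor had exactly the same value, and their median difference was 0. How such equal values arose was not tested.

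**Figure D1:**
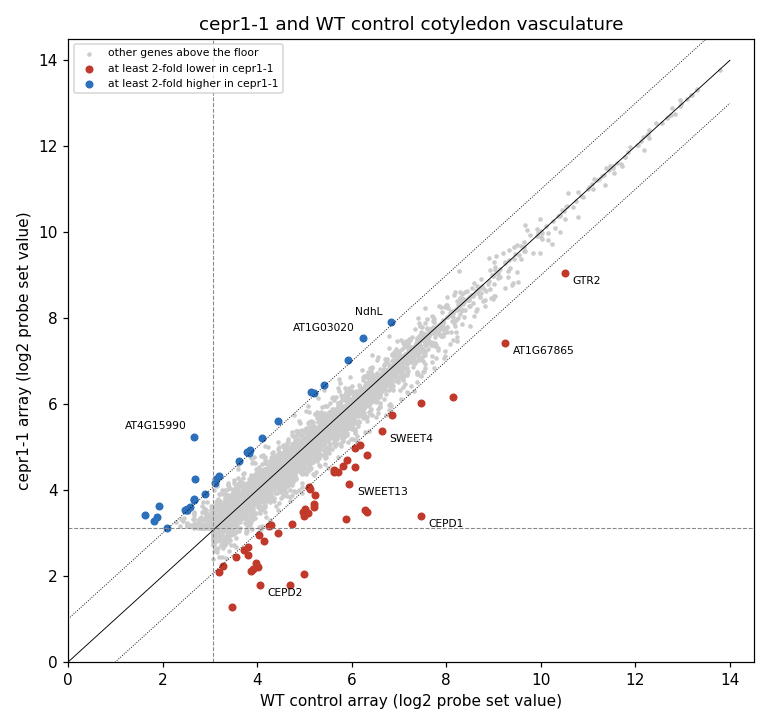
Values on the cepr1-1 array (vertical axis, log2) against the WT control array (horizontal axis, log2) for the 8643 genes above the floor, 1 point per gene. Dotted lines mark a 2-fold difference, the solid line equality and dashed lines the array medians; 49 genes (red) lie below the lower dotted line and 30 (blue) above the upper one, with CEPD1 at 3.39 in cepr1-1 and 7.46 in the control.

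The median value of the lower genes was 3.48 in cepr1-1 and 5.09 in the control, and that of the higher genes was 4.25 in cepr1-1 and 3.00 in the control. Of the 49 lower genes, 32 were at or above the median on both arrays, with folds of 2.03 to 16.7. Of the 30 higher genes, 15 were at or above the median on both arrays, and these spanned only 2.05- to 2.46-fold. For the other 17 lower and 15 higher genes the dimmer value lay below its array's median, where signal above background is not shown, so their values are given without a fold.

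The counts in each direction varied between classes of brightness, but they were small and no trend was tested. Among genes whose brighter value was under 4, 10 of 2660 were lower and 13 higher. Among those at 5 to 6, 14 of 1867 were lower (0.750%) and 3 higher (0.161%). At 8 and over, 3 of 234 were lower and 0 higher. Equal values were most frequent in the dimmest class, at 66.8% of the genes under 4, beside 15% of those at 8 and over.

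**Figure D2:**
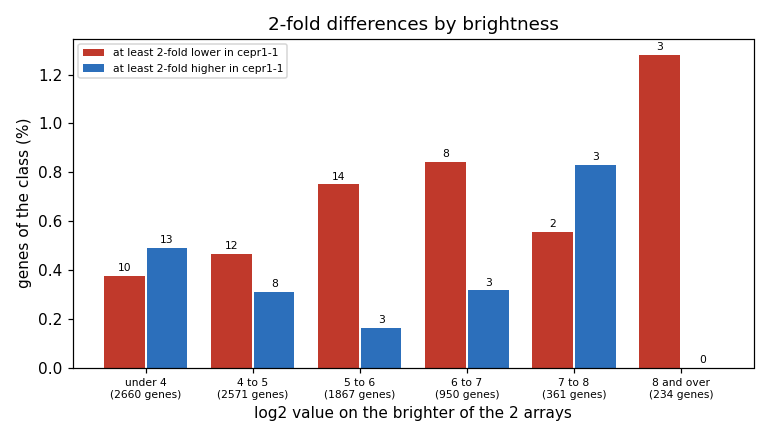
Share of genes at least 2-fold lower (red) or higher (blue) in cepr1-1, in percent of the genes of each class, by the log2 value on the brighter array. Numbers over the bars are counts of genes; the lower genes outnumber the higher ones in the classes from 4 to 7 and at 8 and over, and not under 4 or at 7 to 8.

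The glutaredoxins CEPD1 and CEPD2 of the CEP pathway were both among the 49 lower genes. CEPD1 (AT1G06830), at 3.39 in cepr1-1 and 7.46 in the control, had the largest difference of any gene above the floor, -4.07. CEPD2 (AT2G47880) was 1.78 in cepr1-1, below the array's median, and 4.06 in the control. On the array of wild type with CEP1, which shares its control with the mutant, CEPD1 was 9.00 and CEPD2 5.79, so that both genes were lowest on the mutant array. In bulk tissue fewer cells of a type and less RNA per cell cannot be told apart, here and for every gene below.

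Plant glutaredoxins of the CC type, the class that holds CEPD1, bind bZIP factors of the TGA class in the nucleus. Of the 21 listed, 20 were measured and 15 lay above the floor. In cepr1-1, 3 of the 15 lay 1.5-fold or more under the control and 4 as far over it, and the median of the 15 differences was -0.03. Beside CEPD1 and CEPD2, the lower member was the CEPD-like CEPDL2 (AT2G47870), at 4.57 in cepr1-1 and 5.33 in the control. The higher members were AT1G03020 (7.53 in cepr1-1 and 6.23 in the control), AT3G21460 (6.45 and 5.41), AT3G62930 (4.64 and 3.89) and AT3G62950 (4.0 and 3.26). The other members were nearer to the control. AT5G18600, the brightest of the class at 8.56 in cepr1-1 and 8.69 in the control, differed by -0.14, and AT2G30540 by -0.44. The tandem copies AT4G15660, AT4G15670, AT4G15680 and AT4G15700 lay between 7.32 and 8.20 in cepr1-1 and between 7.43 and 8.23 in the control. These copies and the neighbours AT3G62930 and AT3G62950 are close relatives, and signal shared between their probes was not tested.

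The peptides and receptors that act before the glutaredoxins gave little. Of 8 listed genes 5 were measured, all of them peptide precursors, and AT3G50610, listed as CEP9, was the 1 above the floor, equal at 3.5 on both arrays.

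Of the transporter families, the SWEET genes are given first. Families here and below were picked by name, so members without the family's name among their symbols or synonyms were not counted. SWEET proteins carry sugars across membranes, and SWEET11, SWEET12 and SWEET13 are known for sucrose export towards the phloem. SWEET13 (AT5G50800) was 4.14 in cepr1-1 and 5.95 in the control, 3.51-fold lower. SWEET4 (AT3G28007), which carries hexoses, was 5.36 and 6.64, 2.42-fold lower. On the CEP1 array SWEET13 stood at 6.5 and SWEET4 at 8.33, above the control in both cases.

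The other SWEET genes did not share this difference. Of 16 measured, 6 were above the floor and 2 were at least 1.5-fold lower. SWEET11, the brightest, was 11.5 on each array, with a difference of 0.06, SWEET2 differed by 0.18, and SWEET1 and SWEET10 were equal on both arrays. SWEET4 and SWEET13 were thus the 2 members beyond 1.5-fold, while SWEET11, the measured family member of the phloem list, was not. SWEET12, also on that list, was not among the measured genes.

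The NRT1/PTR family (NPF) holds carriers of nitrate, peptides, hormones and glucosinolates. Of 13 measured genes with a name of this family, 9 lay above the floor, of which 3 were at least 1.5-fold lower in cepr1-1 and 1 higher. Members without such a name were not counted. GTR2 (AT5G62680, NPF2.11), which loads glucosinolates into the phloem, was 9.04 in cepr1-1 and 10.5 in the control, 2.77-fold lower, and 11.1 with CEP1. It was the brightest of the 49 lower genes. Its close relative GTR1 was 6.08 and 6.45, a difference of -0.36.

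NPF4.3 (AT1G59740) was 7.23 in cepr1-1 and 7.98 in the control, 1.67-fold lower, and NPF3.1 (AT1G68570) was 5.68 and 6.31, 1.55-fold lower. NPF4.2 (AT3G25280) went the other way, at 3.79 in cepr1-1 and 3.17 in the control. NPF6.2 (AT2G26690), listed as the leaf nitrate carrier NRT1.4, differed by -0.11 at 8.58 and 8.69, NPF6.4 (AT3G21670) by 0.45, and NAXT1 and NPF4.4 (AT1G33440) were equal. In the glucosinolate list, 4 of 19 genes were measured, all above the floor, and GTR2 was the 1 that differed by 1.5-fold, while UGT74B1 and AT2G31790 were equal on both arrays. The nitrate and ammonium list had 2 measured members, AT2G26690 and NRT2.5, which lay below the floor. The primary nitrate response list had 3, of which AT1G25550 was 9.35 in cepr1-1 and 9.33 in the control and AT1G68670 was equal at 5.11.

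Sulfate activation feeds glucosinolate synthesis. Of 22 listed genes 5 were measured and 4 lay above the floor. APS3, an ATP sulfurylase that activates sulfate, was 5.92 in cepr1-1 and 6.59 in the control, 1.59-fold lower, and the sulfite reductase gene SIR was 8.46 and 8.94, a difference of -0.48. BGLU28, a marker of sulfate starvation, was higher, at 5.00 and 4.23. AT1G04770 was equal at 3.07 on both arrays.

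CLE peptides of the TDIF type are made in phloem and keep neighbouring procambial cells from becoming xylem. CLE44 (AT4G13195) was 2.15 in cepr1-1 and 3.91 in the control, the first of these below the array's median. CLE41, which encodes the same type of peptide, was 7.96 and 7.93. The third measured member of that list, CLE45, was equal at 2.24, below the floor.

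Among the genes with a symbol, the lower ones at 2-fold also included UGT73B5 (AT2G15480), a glycosyltransferase, at 3.22 in cepr1-1, 4.73 in the control and 6.76 with CEP1. The gene annotated ACA.l (AT1G13210) was 3.46 in cepr1-1 and 5.07 on both wild-type arrays. KIN1, a small cold- and abscisic acid-induced protein gene, was 2.48 in cepr1-1 and 3.80 in the control. Its neighbour KIN2, a near copy, was 9.20 and 9.03, and probe signal shared between the 2 was not tested.

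The other 40 lower genes have no symbol beyond their locus and are in no gene list, and 26 of them lay at or above the median on both arrays. Their median was 3.51 in cepr1-1 and 5.10 in the control. AT3G46880, at 3.49 and 6.33, was 7.18-fold lower and was 7.98 with CEP1. AT3G24230, at 3.54 and 6.27, was 6.65-fold lower and was 7.35 with CEP1. AT4G13180, at 3.32 and 5.87, was 5.86-fold lower and had the control's value on the CEP1 array. These were, after CEPD1, the 3 largest folds of the genes at or above the median on both arrays. Their mutant values, like that of CEPD1, lay little above the cepr1-1 median of 3.11. Signal above background is not shown there either, so the folds are uncertain.

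AT1G67860 (6.17 in cepr1-1, 8.15 in the control) and AT1G67865 (7.41 and 9.25) were the brightest of the 40, 3.93- and 3.57-fold lower. They are adjacent on chromosome 1, with 0 measured genes between them, and whether their probes share signal was not tested. A second close group lies on chromosome 4, where AT4G13150 (2.68 and 3.80), AT4G13180 and CLE44 were all lower, with 2 measured genes between the first pair and 1 between the next. No other pair of 2-fold genes with the same direction had 4 or fewer measured genes between them.

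A further 6 bright loci were 2.12- to 2.88-fold lower. AT5G42530 was 6.03 in cepr1-1 and 7.46 in the control, 2.70-fold lower. AT4G24160 was 5.76 and 6.84, AT2G34930 4.80 and 6.33, AT1G56140 5.05 and 6.18, and AT3G04210 4.54 and 6.06. AT5G22090 was 4.99 and 6.07. In all 6 the CEP1 array lay within 0.55 of the control on the log2 scale.

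AT1G09932 (4.69 in cepr1-1 and 5.89 in the control), AT2G24600 (4.56 and 5.81), AT3G15650 (4.42 and 5.71), AT1G25520 (4.42 and 5.62) and AT1G12890 (4.46 and 5.62) formed a band of genes near 4.5 in the mutant. AT1G27020 (3.89 and 5.22), AT1G53080 (3.67 and 5.20), AT3G15356 (3.6 and 5.20), AT4G15430 (3.56 and 5.01), AT4G09760 (3.48 and 4.97) and AT1G35350 (3.40 and 4.99) lay below that band. AT1G74440 (4.01 and 5.12), AT2G39650 (4.06 and 5.09), AT2G33350 (3.19 and 4.29) and AT3G22240 (3.15 and 4.24) complete the loci at or above both medians. AT3G22240 was 6.86 with CEP1, the largest gap between CEP1 and control among these 4, and AT4G15430 was 3.73 there, near its mutant value.

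In 14 lower loci the mutant value lay below the median of its array. AT5G46871 (2.05 in cepr1-1 and 4.98 in the control), AT1G48720 (1.78 and 4.70), AT2G18810 (1.27 and 3.47) and AT2G25510 (2.2 and 4.01) were 4 of these. AT3G13403 (2.99 and 4.45), AT5G19110 (2.82 and 4.15), AT1G34040 (2.13 and 3.86), AT4G31000 (2.31 and 3.96), AT2G05632 (2.61 and 3.73) and AT4G13150 followed. AT1G61470 (2.95 and 4.03), AT5G40070 (2.44 and 3.55), AT3G55240 (2.23 and 3.27) and AT5G54350 (2.1 and 3.2) were the dimmest in the control or nearest to 2-fold. On the CEP1 array AT5G46871 stood at 7.73, whereas AT2G18810 stood at 1.4, close to its mutant value.

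**Figure D3:**
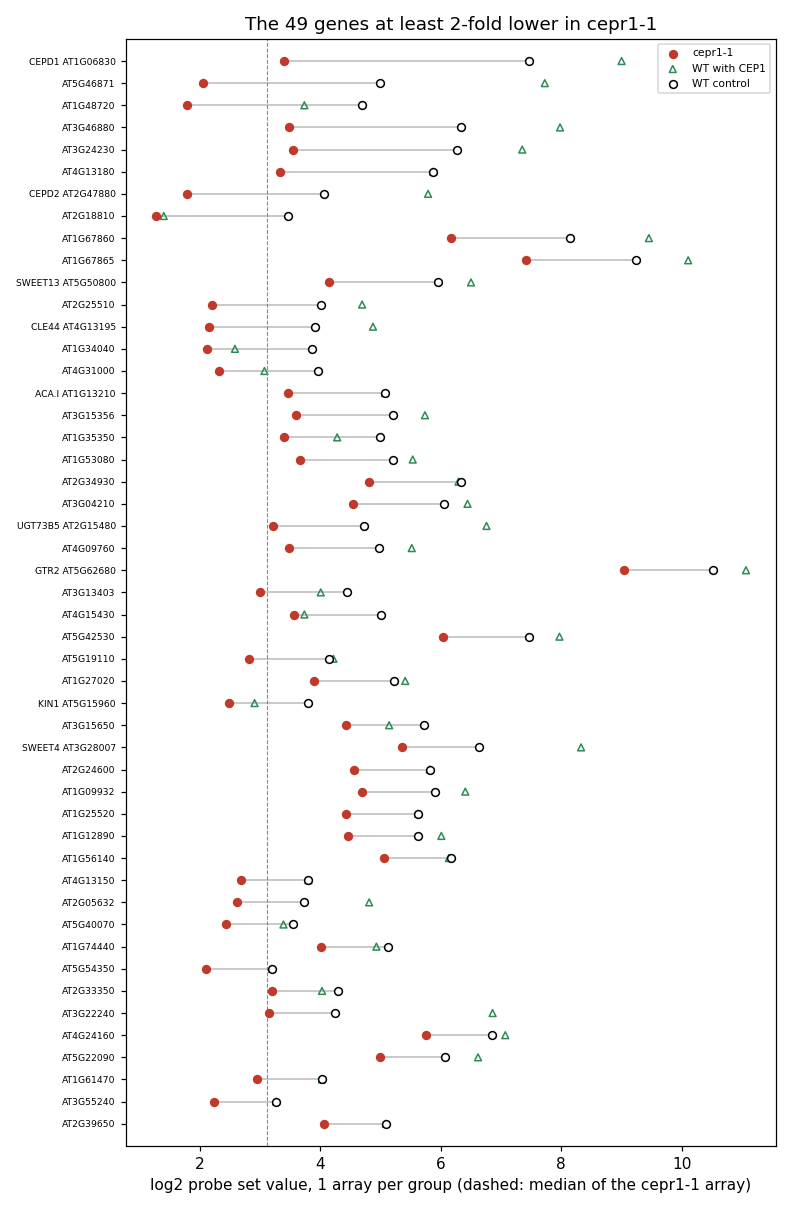
Log2 values of the 49 genes at least 2-fold lower in cepr1-1, ordered by the size of the difference: cepr1-1 (filled red), wild type with CEP1 (open triangle, hidden where it equals the control) and WT control (open circle). The grey bar joins cepr1-1 and control, and the dashed line is the cepr1-1 median of 3.11, to the left of which 17 mutant values lie.

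The higher genes included few with a symbol. NdhL (AT1G70760), a subunit of the chloroplast NDH complex that passes electrons back to the plastoquinone pool, was 7.90 in cepr1-1 and 6.82 in the control, 2.11-fold higher and the brightest of the 30. It was 6.94 with CEP1. NdhN (AT5G58260), another subunit, was 5.75 and 4.77, just outside the 2-fold limit at 1.98-fold.

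NdhL and NdhN stood out among the 11 photosystem, light-harvesting and NDH genes above the floor, whose median difference was 0.05. NdhU differed by 0.18, PSBY by 0.47 and PSB27 by 0.31, and the photosystem genes PSBW, PSAE-1 and PSAN and the antenna genes LHB1B2, LHCB4.1 and LHCB4.2 by -0.06 to 0.05. Among the 63 chloroplast-encoded genes, which were all above the floor, the median was 0.01, the range -0.20 to 0.47, and 0 differed by 1.5-fold. SBPASE, a Calvin cycle enzyme from the mesophyll list, was 8.25 in cepr1-1 and 7.55 in the control, 1.62-fold higher, while PRK and RCA of the same list were 5.71 and 9.70 in cepr1-1 and 5.74 and 9.49 in the control. LrgB (AT1G32080), 1 of the 15 brightest higher genes under 2-fold and an inner envelope carrier of photorespiration, was 6.58 and 5.73, 1.81-fold higher.

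These plastid genes are mostly active in mesophyll, so the markers of that tissue are given beside them. Of 28 listed mesophyll markers 5 were measured, and their linear values summed to 2332 in cepr1-1 and 2082 in the control, 1.1 times as much. SBPASE was 1 of the 5, with RCA at 0.21, LHB1B2 at 0.03, LHCB4.1 at 0.01 and PRK at -0.03. The part of carried-over mesophyll in the plastid values was not tested. For 4 of 19 epidermis and guard cell markers the sums were 588 and 764, a ratio of 0.769 that rests on AT1G22690 (9.08 in cepr1-1 and 9.49 in the control), with FMA equal at 5.37.

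The labelled tissue could be checked against few vascular markers. Of 17 phloem markers 3 were measured, with summed values of 3021 in cepr1-1 and 2899 in the control, nearly all from SWEET11, while AT5G53730 was equal at 5.62 and OPS lay under the median on both arrays. Of 17 xylem and procambium markers, 2 were measured. LHW was equal at 5.98 and MOL1 was 3.04 and 2.91. The other listed vascular markers were not analysed here.

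The other higher genes with a symbol were dim. SCRL26, of a family of small cysteine-rich peptides, was 3.28 in cepr1-1 and 1.81 in the control, the glycosyltransferase gene UGT85A7 was 3.61 and 2.58, and the protein phosphatase gene TOPP7 was 4.17 and 3.11. UGT85A7 was 3.93 with CEP1, so it was lowest in the control. Among 26 UDP-glycosyltransferases above the floor, UGT85A7 and UGT73B5 were the members at least 1.5-fold apart, 1 in each direction, and 15 were equal.

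Of the 24 higher loci with no symbol and in no gene list, 11 lay at or above the median on both arrays. AT5G52780, at 7.02 in cepr1-1 and 5.91 in the control, was the brightest. AT2G15880 was 6.27 and 5.14, AT2G29065 6.27 and 5.19, AT1G03106 5.60 and 4.43, and AT2G32550 5.21 and 4.09. AT4G29905 (4.94 and 3.85), AT4G04402 (4.88 and 3.77), AT1G08890 (4.86 and 3.83), AT5G26640 (4.68 and 3.62), AT1G05140 (4.31 and 3.18) and AT5G15780 (4.25 and 3.12) were the others. These 11 were all close to the limit, with 2.25-fold as the highest. AT2G15880, AT2G29065, AT2G32550 and AT4G29905 were lowest on the CEP1 array, at 4.66, 5.03, 3.31 and 3.58.

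In the remaining 13 the control value lay below its array's median. AT4G15990 was 5.24 in cepr1-1 and 2.66 in the control. AT5G53720 (3.41 and 1.63), AT3G32980 (3.62 and 1.93), AT4G28360 (4.25 and 2.67) and AT5G05965 (3.37 and 1.87) followed. AT5G39000 (3.79 and 2.66), AT3G44580 (3.76 and 2.65), AT1G45100 (3.91 and 2.89), AT3G04660 (3.57 and 2.5), AT1G61330 (3.54 and 2.46) and AT4G19620 (3.12 and 2.09) were near 2-fold. AT1G61440 and AT5G52605 had identical values on all 3 arrays, 3.54 in cepr1-1 and 2.5 on both wild-type arrays. Such sharing was common in the deposited table, where 8653 measured genes had the same 3 values as another gene.

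**Figure D4:**
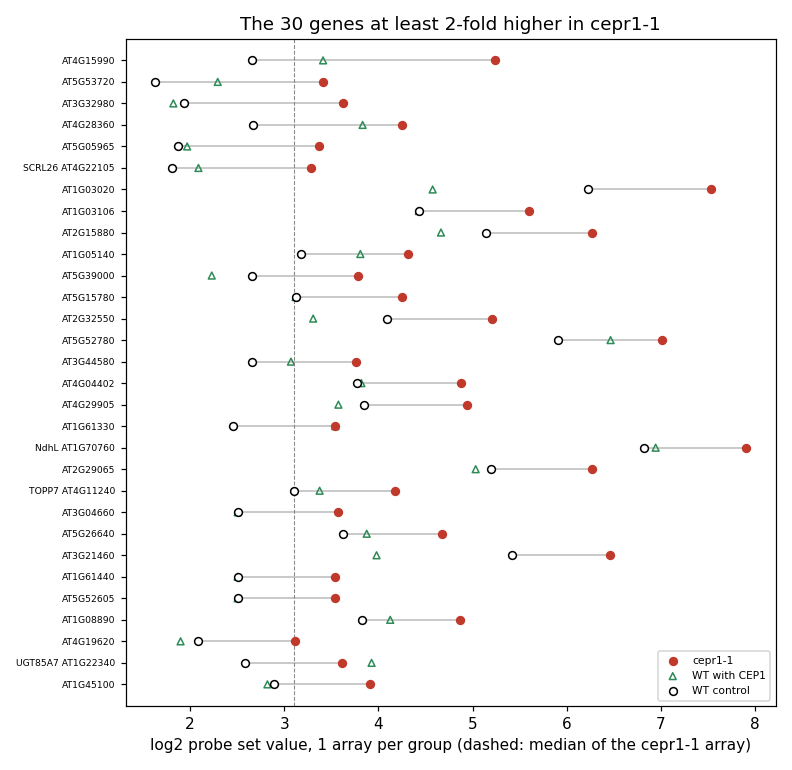
Log2 values of the 30 genes at least 2-fold higher in cepr1-1, ordered by the size of the difference, with the symbols used for the lower genes: cepr1-1 (filled red), wild type with CEP1 (open triangle, hidden where it equals the control) and WT control (open circle). In 15 genes the control value lies below its median of 3.07, close to the dashed cepr1-1 median.

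Between 1.5- and 2-fold, gene families gave smaller differences than the genes above. Beta-glucosidases, which release sugars from glucosides such as stored defence compounds, had 12 members above the floor, of which 3 were higher by 1.5-fold and 0 lower. BGLU28 is given above, BGLU16 was 4.76 in cepr1-1 and 4.17 in the control, and BGLU20 (ATA27) was 3.46 and 2.66. The control value of BGLU20 lay below its array's median. The brightest member, BGLU33, was 9.82 and 10.2, a difference of -0.33. Another, BGLU40, was the lowest at -0.57, so the family had members on both sides of its median of 0.

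Plant U-box proteins are ubiquitin ligases, and PUB22, PUB23 and PUB24 are known to damp immune signalling. Of 6 genes above the floor with a name of this family, 2 were at least 1.5-fold lower and 0 higher, with a median of -0.35. U-box genes without such a name were not counted. PUB24 was 6.84 in cepr1-1 and 7.55 in the control, and PUB43 2.44 and 3.25, the first of these below the array's median. PUB23 was 5.81 and 6.37, PUB22 4.43 and 4.58, PUB19 differed by -0.01 and PUB26 was equal. Among 14 ubiquitin-conjugating enzymes, UBC30 was the 1 beyond 1.5-fold, at 7.47 and 8.23.

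Cellulose synthase and cellulose synthase-like genes, expansins and the TBL family act on the cell wall. They had 0 members at least 1.5-fold higher in cepr1-1 and most of their genes under that limit. The cellulose synthase and cellulose synthase-like group had 5 genes above the floor. Of these, CSLC04, a xyloglucan synthase, was 5.11 in cepr1-1 and 5.92 in the control, and CSLD2 was 4.86 and 5.52. The other 3 differed by -0.11 to 0. Of 19 expansins, which loosen cell walls, EXPA9 (5.19 and 5.82) and EXLA1 (6.69 and 7.38) were lower by 1.5-fold and 9 were equal. In the list of 15 alpha-expansins, 7 were measured, and EXPA9 was the 1 beyond 1.5-fold, with EXPA4 at 0.30, EXPA15 at 0.20, EXPA7 at 0.10, EXPA16 at 0.04, and EXPA8 and EXPA20 equal. The gene TBL38, of a family of wall polysaccharide acetyltransferases, was 4.59 and 5.30. TBL38 was 1 of 13 genes of its family above the floor, and 10 of these were equal.

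Cold-regulated and LEA proteins protect cells against cold and drying. Of 8 above the floor, KIN1 was lower and 3 were higher by 1.5-fold. COR27 was 6.49 in cepr1-1 and 5.75 in the control, COR15B 3.48 and 2.84 and LEA18 3.90 and 3.2. The control value of COR15B lay below its array's median. COR15A, a close relative of COR15B, was 6.55 and 6.71, and COR47 differed by -0.01. In the list of cold and abscisic acid genes, 6 of 20 were measured and 5 lay above the floor, with KIN1 lower and COR15B higher.

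**Figure D5:**
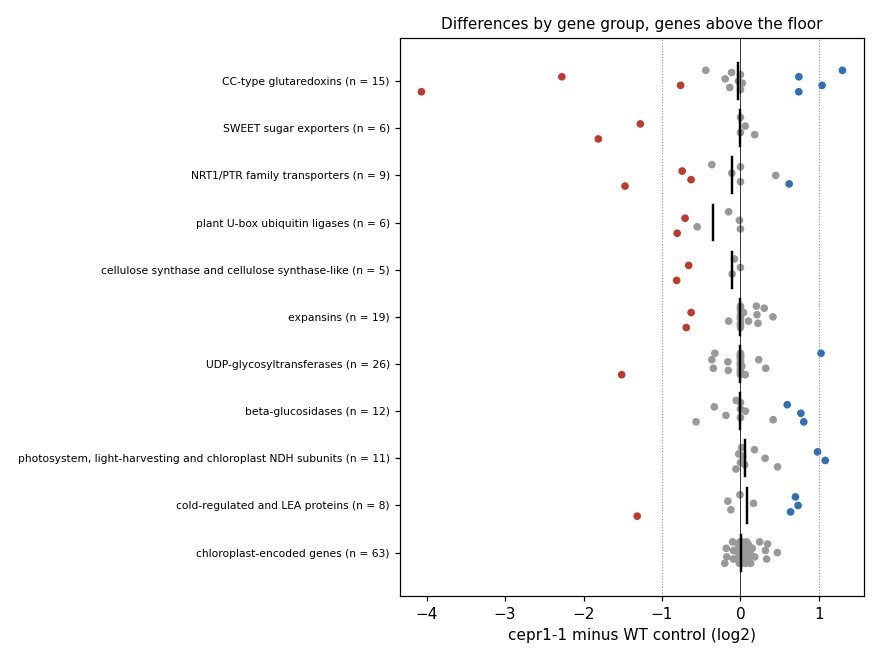
Differences of cepr1-1 minus WT control (log2) for the genes above the floor in 11 gene groups, 1 point per gene, red for at least 1.5-fold lower, blue for at least 1.5-fold higher and grey for the rest; black bars are group medians and dotted lines 2-fold. The glutaredoxins spread from -4.07 to 1.3, and the 63 chloroplast-encoded genes stay between -0.20 and 0.47.

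Between 1.5- and 2-fold there were 136 lower and 81 higher genes, of which the 15 brightest each way are given here. The lower ones with a symbol were UBC30, OPCL1, which acts in jasmonate synthesis (7.48 in cepr1-1 and 8.14 in the control), the homeodomain gene HAT2 (7.13 and 7.97), AT4G24450, 1 of the loci annotated PWD (7.07 and 7.94), CYTC-2, cytochrome c (6.85 and 7.73), and PUB24. The brightest of all was AT5G35735, at 8.84 and 9.53, followed by AT2G47710 at 8.76 and 9.40.

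AT5G15320 (7.81 in cepr1-1 and 8.51 in the control), AT5G05365 (7.56 and 8.23), AT2G46630 (7.40 and 8.07), AT1G59740, AT1G19380 (7.06 and 7.79), AT1G33811 (6.98 and 7.71) and AT4G30600 (6.94 and 7.54) complete the 15 brightest. The differences of these 7 ran from -0.74 to -0.60. AT1G33811 was 6.77 with CEP1, below its mutant value, and AT5G05365 was 8.91.

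Among the brightest higher genes between 1.5- and 2-fold, AT2G37220 led at 9.09 in cepr1-1 and 8.27 in the control. SBPASE, LrgB, COR27 and NdhN were the 4 with a symbol. AT4G36850 (8.00 and 7.39), AT4G15710 (7.59 and 6.79), AT5G21020 (7.14 and 6.43), AT5G65380 (6.62 and 5.96), AT5G03090 (6.37 and 5.71) and AT1G22430 (6.33 and 5.4) came next. AT5G48490 (6.13 and 5.29), AT2G25450 (5.95 and 5.07), AT3G07350 (5.84 and 5.04) and AT3G28220 (5.83 and 5.10) were the others. AT4G36850 and AT4G15710 were lower on the CEP1 array than in the control, at 6.05 and 5.77.

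The lists of hormone, stress and nutrient responses held few members beyond 1.5-fold. The wound-response genes STZ (8.52 in cepr1-1 and 9.00 in the control) and CML37 (5.18 and 5.69) differed by -0.48 and -0.50, under that limit. In the iron deficiency list, of which 4 of 20 were measured, AT1G47400 was 4.70 and 4.46, AT1G47395 4.93 and 4.58 and PYE equal at 5.62. Of 14 auxin genes 6 were measured, and the 2 above the floor were WES1 at -0.44 and GH3.1, equal at 3.79. AKINBETA1 of the sugar starvation list differed by 0.27, AT2G29500 of the heat shock list by 0.16, and the clock gene GI was equal at 6.78. For the cytokinin, salicylate and flavonoid lists, with 2, 3 and 3 measured members, no member lay above the floor.

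Of 10 listed reference genes 5 were measured, and their differences were -0.26 (AT5G15710), -0.14 (PEX4) and 0 for GAPC2, AT2G28390 and AT4G34270. The TGA factor, nitrogen assimilation, amino acid transporter, phosphate starvation and cell division lists were not analysed here, since none of their genes had a named probe set in the tables used.

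By chromosome, the share of genes above the floor that were at least 2-fold apart was 1.09% for chromosome 1, 0.921% for 2, 0.739% for 3, 1.08% for 4 and 0.791% for 5, beside 0.914% over all genes. Around the locus of CEPR1 on chromosome 5, 23 of the 50 nearest measured genes lay above the floor, and 0 of them differed by 1.5-fold or more. At the share over all genes, 3.42%, 0.788 would have been counted.

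The 2-fold limit fell among genes with similar values. Just inside it were AT2G39650, AT3G55240 and AT1G61470 on the lower side, at 2.03-fold for the first, and AT1G45100, UGT85A7 and AT4G19620 on the higher side. Just outside lay AT3G47090 (3.03 in cepr1-1 and 4.03 in the control), AT1G11960 (6.31 and 7.31) and AT1G80120 (3.94 and 4.94) on the lower side. On the higher side these were AT3G32047 (4.58 and 3.58), NdhN and AT5G36980 (3.25 and 2.28).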

How the data were processed

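RNA of dissected cotyledon vasculature was hybridised to Affymetrix Arabidopsis Gene ST arrays, 1 per group. The authors deposited 1 value per probe set and array on a log2 scale, as the range of the values shows. The submitters' processing notes name Affymetrix Expression Console, version 1.3. Background correction, normalization and genome build were not given in the sources used here. Signal over background cannot be given, and the number of arrays limits the precision.

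Of 38408 probe sets, 16722 have 1 gene in the platform annotation, and 52 of these matched no locus of the RefSeq gene table (TAIR10.1) and were left out. The probe set with the highest mean over the 3 arrays was kept per locus (145 loci had more than 1). The floor was the median of the brighter array, and equal values counted as brighter on both. Names are symbols or synonyms in that table (the NPF numbers and BGLU20 are synonyms), apart from names given as a list's and CEPD1, CEPD2 and CEPDL2, which are the study group's names. Named genes were all those 2-fold apart, list members 1.5-fold apart with up to 4 others, the 15 brightest of the 1.5- to 2-fold genes each way, and those next to the limit. The 29 gene lists (410 genes, 114 measured) and the families were chosen with earlier results of these data known. The family patterns, written for annotation text, were rewritten for symbols and synonyms after the tables were seen. Family members without such a name were not counted. Members of families in text beyond the rule were chosen after their values were seen. The counting was tested on simulated data. No test was run, since there is 1 array per group. Python 3.11.15, pandas 2.3.3 and numpy 2.4.6 were used. Alternatives covered normalization, floor, pseudocount and choice of probe set.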

Additional observations from a re-analysis of the deposited data

Results flagged for a closer look

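Probe sets without a gene name in the tables used here were in no comparison above, and some differed by 2-fold or more in cepr1-1. Of 9337 above the floor with IDs not below the lowest named one, 244 were at least 2-fold lower (2.61%) and 283 higher (3.03%). The shares of the measured genes were 0.567% and 0.347%. Of 856 above the floor with IDs below the lowest named one, 145 were lower (16.9%) and 214 higher (25%). The targets of these probe sets were not looked up, and their differences come from single arrays without a replicate check.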

How the results depend on the processing

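The counts of 49 lower and 30 higher genes rest most on how dim genes are treated. Without a floor, 54 genes were at least 2-fold higher and 59 lower. With a floor at the 75th percentile 32 were lower and 13 higher, and with both arrays required at or above their median 32 were lower and 15 higher. With a pseudocount of 16 added on the linear scale, which damps dim genes, 14 were lower and 2 higher. Those 16 genes were CEPD1, AT3G46880, AT1G67860, AT3G24230, AT1G67865, AT4G13180, GTR2, AT5G46871, AT5G42530, SWEET13, AT2G34930, AT1G48720, AT3G04210 and SWEET4 among the lower, and AT1G03020 and AT4G15990 among the higher. CEPD1 kept the largest difference, -2.86 with the pseudocount. Normalization moved the counts to 49 to 58 lower and 26 to 31 higher. The choice of probe set left them at 49 and 30. Each of the 79 genes had 1 probe set, so that choice could not change their values. Of the 79 genes, 78 stayed past 2-fold and above the floor with quantile normalization. The number was 75 with median centring and 79 after removal of the trend with level. Under the 9 alternatives 0 turned round, but most of them could not reverse a difference. Floors and probe set choice left each difference unchanged, a pseudocount keeps its sign, and median centring shifted all genes alike and slightly. No paired analysis was possible because each group has 1 array.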
